A study of Mus musculus with 6 samples.

Results

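The genes for the protein subunits of the mitochondrial ribosome were followed in mouse pre-pro-B cells that lack Ebf1 and were given it back. They were taken as every array probe whose gene name begins with Mrpl or Mrps and a number, which gave 124 probes for 75 genes among 41174 probes and 27827 gene names in all. Each gene was represented by its probe with the highest mean signal over the 6 arrays. That choice of probe used no difference between the groups, but the set of genes was chosen with earlier results of these data known. All cells carried the genotype Ebf1 -/-, were pre-pro-B cells by label, and grew in Opti-MEM on OP9 stromal feeder cells with IL-7, SCF and Flt3 ligand, each at 10 ng/ml. Controls (n = 3) received the retrovirus pMYs-IRES-EGFP, which encodes EGFP alone, and the other samples (n = 3) received pMYs-Ebf1-IRES-EGFP, whose insert the sample titles call Ebf1beta. EGFP-positive cells were sorted 24 h after infection in both groups, so expression was driven by a retroviral vector in every infected cell rather than from the gene's own locus. The labels do not say whether the samples of a group came from separate animals or cultures, so the p-values measure only the spread between these samples, and 3 arrays a group limit the precision.

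Mitochondrial ribosomes translate the few messages encoded by mitochondrial DNA, all of which specify core subunits of the respiratory chain and of ATP synthase. Their RNA comes from the mitochondrial genome, whereas all of their proteins are encoded in the nucleus, made on cytosolic ribosomes and imported. The large subunit (Mrpl genes) joins amino acids and holds the exit tunnel, and the small subunit (Mrps genes) binds the message and decodes it. Some of the proteins correspond to a protein at the same place in the bacterial ribosome and others are specific to mitochondria, and the genes are described in these classes. Mrps18a and Mrps30 carry small subunit names but sit in the large subunit.

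The level of a probe is the log2 of its background-subtracted signal minus the 75th percentile of its array, so that 0 marks the array's 75th percentile, and changes are Ebf1 virus minus control virus on that scale. The 75th percentile signal was 240 to 366 on control arrays and 316 to 364 on Ebf1 arrays. An Ebf1 probe on the array gave 0.86, 0.10 and 0.36 on control arrays 1 to 3 and 0.22, 0.40 and 0.27 on Ebf1 arrays 1 to 3. It was not called, at -0.15 ± 0.21 (SE, adjusted p = 0.65 in limma's test). Whether it matches the sequence that the virus carries was not determined, so it checks no label. Another Ebf1 probe was well above background on none of the arrays and was not tested. The surrogate light chain genes Igll1, Vpreb1 and Vpreb2 and the B cell receptor gene Cd79b were all called higher. Of 8 markers of pre-pro-B cells, 5 were called lower (Spn, Il7r, Kit, Cd93 and Cd34), or 62.5% beside 11.0% of all genes. Ptprc, the pan-leukocyte surface phosphatase, was at -0.09, and Dntt was at -0.60 without being called (adjusted p = 0.20). The cytokine receptor Flt3 was at 0.67 with all Ebf1 arrays above all controls (adjusted p = 0.11). The summed linear level of these 8 was 212 to 306 on control and 115 to 138 on Ebf1 arrays. Of 12 markers of stromal feeder cells, 8 were tested and 3 were called higher (Fstl1, Fn1 and Col5a1), or 37.5% beside 12.6% of all genes. All 8 lay above 0, with a median of 0.64. For 7 of them all Ebf1 arrays were above all control arrays, against 20.3% of all genes. Their summed level was 14.8 to 20.6 on control and 23.3 to 30.6 on Ebf1 arrays. Dcn and Lum, both defining markers, failed the background flag on all 6 arrays. Of 4 macrophage markers, Csf1r was called higher and Adgre1, on the array as Emr1, lower, or 25% each, beside 12.6% and 11.0% of all genes. Cd68 (-0.34) and Lyz2 (0.38) were not called and their groups overlapped. The summed level of all 4 was 10.46 to 16.9 on control and 7.14 to 8.33 on Ebf1 arrays. That sum is almost wholly Adgre1, at log2 levels of 2.76 to 4.05, whereas the others lay between -5.01 and -2.08. It thus does not speak for the other macrophage markers. Of the erythroid markers 2 were tested, and Alas2 was called higher and Hbb-b1 lower. The part of these markers in the results was not tested. In these bulk samples, fewer cells of a type and less RNA per cell cannot be told apart.

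After Ebf1 was restored, some of the mitochondrial ribosomal protein genes were lower, in both subunits, and none that passed the test was higher. All 75 genes were well above background on all 6 arrays, and all were tested. In limma's moderated test with Benjamini-Hochberg adjustment over the 20455 probes tested, 17 of the 75 genes (22.7%) passed an adjusted p of 0.05 with a lower level, against 11.0% of the 13627 genes tested with 1 probe each. Over single probes, 10.2% were called lower, 11.5% higher and 21.7% in either direction. None was called higher, against 12.6% of all genes, and at an unadjusted p under 0.05 the counts were 33 lower, against 20.0% of all genes, and 0 higher, against 18.1%. The remaining 58 did not pass. A fitted change below 0 was found for 66 of the 75 (55.4% of all genes), and all Ebf1 arrays lay below all control arrays for 45 of them, against 25.2% of all genes. The opposite separation, with all Ebf1 arrays above, was seen for 3, against 20.3%. The median change was -0.35, or 78.3% of the control level, with quartiles of -0.51 and -0.17. All genes tested had a median of -0.06, and the 12375 genes above background on all 6 arrays, as these 75 were, had one of -0.10. Of those 12375 genes, 11.7% were called lower and 9.62% higher. A fitted change below 0 was found for 59.4% of them, and 27.1% had all Ebf1 arrays below all control arrays. At an unadjusted p under 0.05 their shares were 21.4% lower and 14.5% higher. Changes of the 75 ran from -0.86 for Mrpl11 to 0.35 for Mrpl52, with a median standard error of 0.15.

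**Figure D1:**
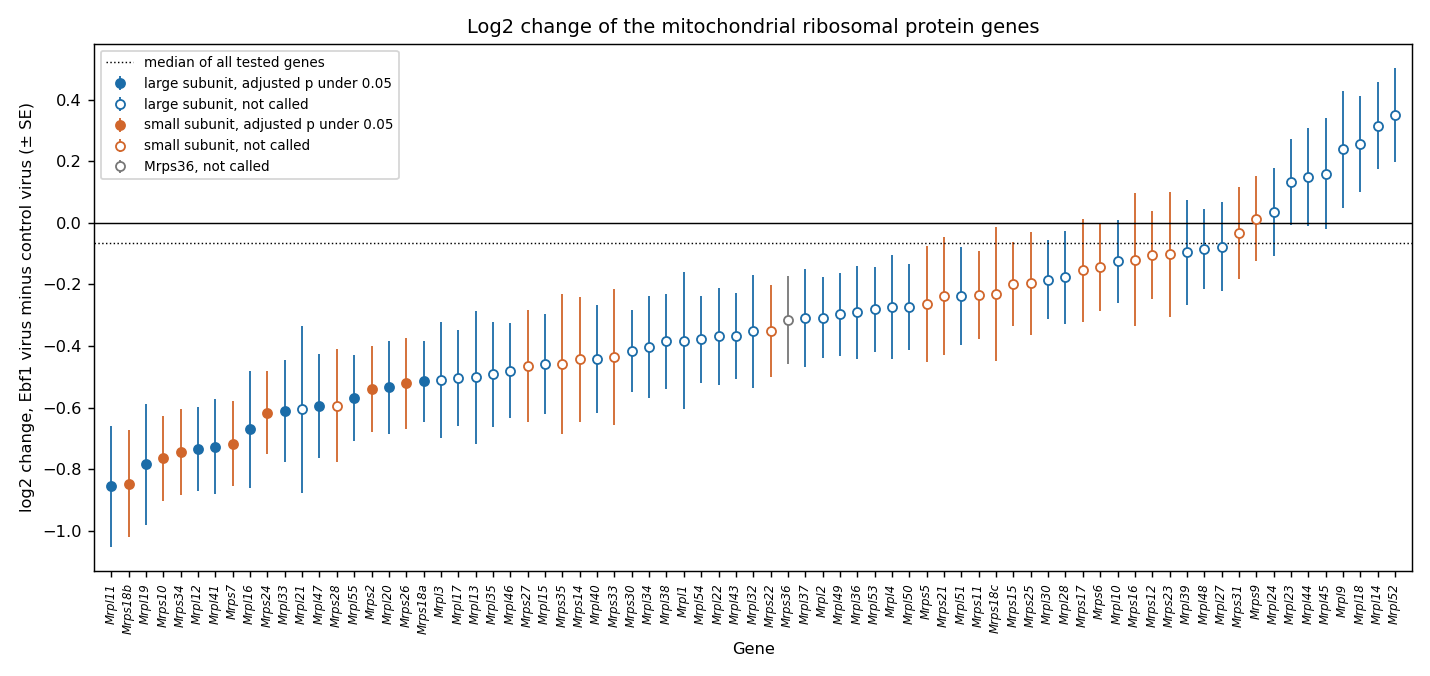
Log2 change (vertical axis, Ebf1 virus minus control virus) of each of the 75 genes, ordered by size along the horizontal axis, with bars of ± SE from the limma fit. Filled points mark the 17 genes called lower, blue the large subunit, orange the small subunit and grey Mrps36; 66 of the 75 points lie below 0 and the dotted line is the median of all tested genes (-0.06).

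The number of genes that passed changed with the settings. With no filter on dim probes none of the 75 passed, beside 1.59% of all probes called lower, and with the slide as a fixed block 2 did (Mrps18b and Mrpl19; 2.67% beside 4.39%). In these 2 settings the share of the 75 called lower was thus under that of all probes. With quantile normalisation 11 were called lower (14.7% beside 10.51%) and Mrpl14 higher. Without control array 2 or 3 the calls were 4 (5.33% beside 4.89% of all probes) and 5 (6.67% beside 5.17%), and without Ebf1 array 2 they were 6 (8% beside 5.995%), so that both shares were near each other. Without control array 1, Ebf1 array 1 or Ebf1 array 3 they were 10 (13.3% beside 7.67%), 9 (12% beside 7.63%) and 15 (20% beside 8.22%). The median of the 75 was -0.41 to -0.28 over these 6 fits. The arrays lay on 3 slides, of which 1 held control arrays 1 and 3, 1 held Ebf1 arrays 2 and 3, and 1 held control array 2 with Ebf1 array 1. On that shared slide, with 1 array a group, the median change was -0.42, with 65 of the 75 below 0. All genes tested had a median of -0.11 there, with 7757 of 13627 below 0. Each of the 17 called genes was below 0 there, from -1.22 for Mrps18b to -0.49 for Mrps26. That sign was fixed beforehand, because each of the 17 had all Ebf1 arrays below all control arrays, so it is no separate support. When each array was scaled by its median over all probes, the median of the 75 moved to -0.66 and that of all probes tested to -0.37. Such a scaling moves every probe of an array by the same amount. The gap between both medians, -0.29, therefore could not change and tests nothing. Under that scaling 67.8% of all called probes were lower, in place of 47.0%.

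**Figure D2:**
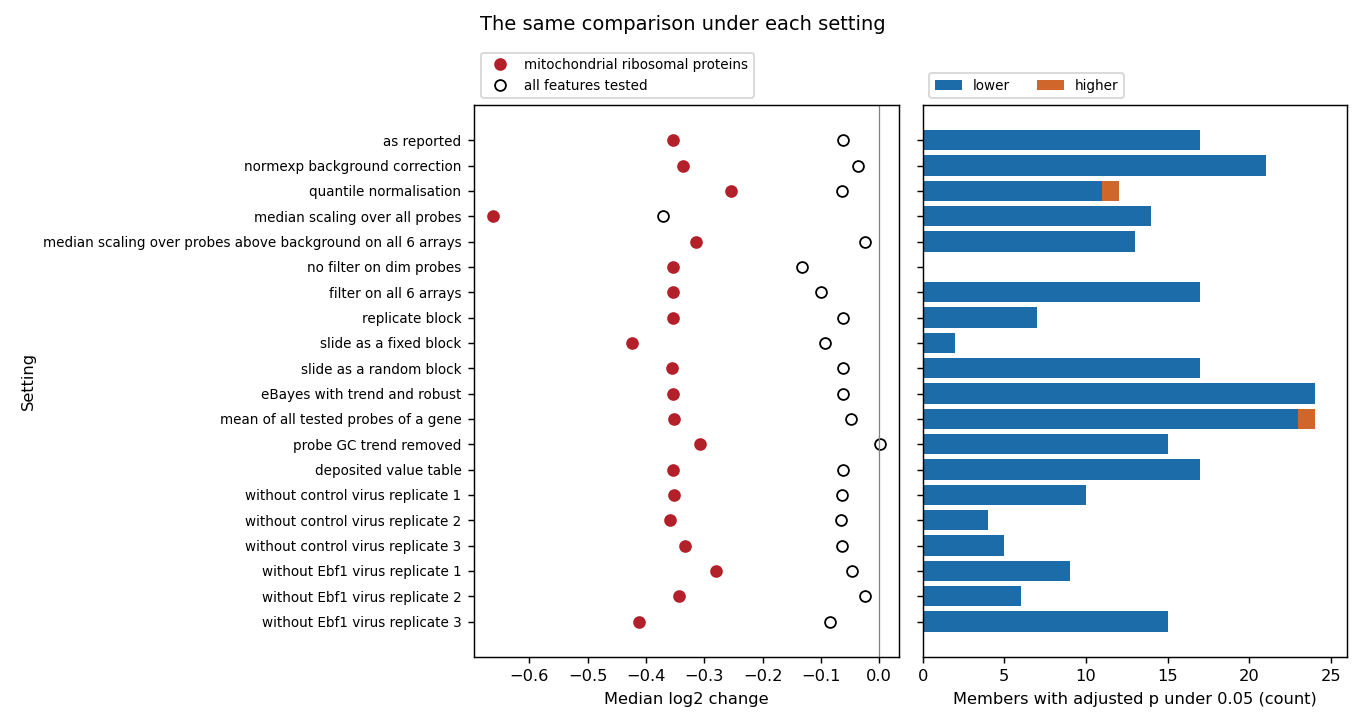
Median log2 change of the 75 genes (red) and of all features tested (open) in the left panel, and the number of the 75 genes with adjusted p under 0.05 in the right panel, for the reported fit and 19 alternative settings (vertical axis). The red points lie between -0.66 and -0.25 and left of the open point in each setting, while the count of genes called lower runs from 0 to 24.

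The start regions of these genes were read from RefSeq (GRCm38.p6, 250 bases before to 50 after each gene's start) to show what the genes share in sequence. Windows were found for 66 of the 75, among them 15 of the 17 called lower, and for 27025 genes in all. Both strands were searched for the letters of 6 motifs, and no matches of different motifs overlapped in these genes' windows. Some genes had more than 1 window, with 72 windows for the 66 genes, and a gene was counted where any of its windows matched. CCGGAAG, a core bound by ETS factors such as GABP, was in 24 of the 66 genes (36.4%) and in 9.93% of all genes. GCGCANGCG, of the site bound by NRF1, was in 15 (22.7%) beside 7.03%, and AAGATGGCG, bound by YY1, in 7 (10.6%) beside 1.64%. These factors are known regulators of nuclear genes for mitochondrial proteins. The E-box CACGTG, bound by Myc and Max, was in 5 (7.58%) beside 8.09%, and CCAAT in 26 (39.4%) beside 41.1%. TCCCNNGGG, of the palindrome bound by Ebf1, was in 5 (7.58%) beside 7.48%, in Mrpl27, Mrpl36, Mrpl48, Mrpl53 and Mrps33, none of which was called. Among the 15 called genes with a window, 4 held the ETS core (26.7%), 3 the NRF1 motif (20.0%), 2 the YY1 motif (13.3%), 1 the E-box and 7 CCAAT, and none held the EBF motif. Among the 51 genes with a window that were not called, 20 held the ETS core (39.2%), 12 the NRF1 motif (23.5%) and 5 the YY1 motif (9.80%). In these, 4 held the E-box, 19 CCAAT and 5 the EBF motif. The difference between called and other genes was not tested. The median GC content was 58.5% in these genes' windows and 52.7% in all windows. A match is a string of letters, not evidence of binding.

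The windows of 4 called genes are printed on the strand of the gene, 5′ to 3′, with the motif matches in capitals and positions counted from 0 at the start base. They were chosen after their values were seen, to show genes of both subunits with different matches or nearly none. Mrps10 (chr17:47368947-47369246) has only a CCAAT box on the opposite strand, at bases -81 to -77. In Mrpl12 (chr11:120484387-120484686) an NRF1 motif on the opposite strand lies at bases -80 to -72. Mrps18a (chr17:46110754-46111053) has a CCAAT box at bases -196 to -192, the ETS core at bases -26 to -20 and the YY1 motif at bases 11 to 19. Mrps24 (chr11:5707652-5707951) has the YY1 motif at bases 36 to 44.
Mrps10: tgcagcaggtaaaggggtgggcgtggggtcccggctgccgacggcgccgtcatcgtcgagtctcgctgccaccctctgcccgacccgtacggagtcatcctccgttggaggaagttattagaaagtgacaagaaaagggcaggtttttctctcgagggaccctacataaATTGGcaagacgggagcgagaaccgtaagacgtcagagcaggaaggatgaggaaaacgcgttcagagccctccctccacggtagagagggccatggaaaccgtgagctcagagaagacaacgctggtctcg
Mrpl12: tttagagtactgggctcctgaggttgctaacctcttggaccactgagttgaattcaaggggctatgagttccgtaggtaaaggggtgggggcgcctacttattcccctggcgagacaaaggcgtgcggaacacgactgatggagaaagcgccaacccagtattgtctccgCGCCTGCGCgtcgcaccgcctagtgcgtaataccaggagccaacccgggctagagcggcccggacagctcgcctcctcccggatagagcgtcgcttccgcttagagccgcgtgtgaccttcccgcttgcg
Mrps18a: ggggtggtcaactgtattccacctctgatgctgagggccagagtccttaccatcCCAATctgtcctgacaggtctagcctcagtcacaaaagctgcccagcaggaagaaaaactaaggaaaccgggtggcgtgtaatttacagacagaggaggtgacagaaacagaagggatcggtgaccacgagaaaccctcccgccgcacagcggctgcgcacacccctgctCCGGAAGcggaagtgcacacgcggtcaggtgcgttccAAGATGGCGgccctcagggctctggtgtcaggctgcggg
Mrps24: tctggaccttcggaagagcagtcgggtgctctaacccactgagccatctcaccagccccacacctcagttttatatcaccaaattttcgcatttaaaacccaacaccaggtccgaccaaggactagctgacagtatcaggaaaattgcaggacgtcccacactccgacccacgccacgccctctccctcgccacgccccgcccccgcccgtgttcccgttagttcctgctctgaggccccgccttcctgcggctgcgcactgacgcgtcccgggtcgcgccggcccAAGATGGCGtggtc

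In the large subunit, 30 of the genes have a bacterial counterpart. Of these, 8 were called lower (26.7%, beside 11.0% of all genes), 22 did not pass, none was called higher (12.6% of all genes), and the median change was -0.39. Probe positions are those of mm9. Mrpl12, whose NRF1 match is printed above, encodes the stalk protein that recruits translation factors and has been reported to bind the mitochondrial RNA polymerase. Its probe (chr11:120349740-120349799) gave 5.61, 5.72 and 5.82 on control arrays 1 to 3 and 4.99, 4.91 and 5.03 on Ebf1 arrays 1 to 3. The arrays of a group lay close together and far from those of the other group, and the change was -0.73 ± 0.14 (SE; adjusted p = 0.008). Mrpl11 makes the protein at the base of that stalk, and its probe (chr19:4964880-4964939) gave 5.38, 5.45 and 5.65 on control arrays 1 to 3 and 4.28, 4.68 and 4.94 on Ebf1 arrays 1 to 3. The groups did not overlap, Ebf1 array 1 was the lowest, and the change of -0.86 ± 0.20 (SE; adjusted p = 0.02) was the lowest of the 75. For Mrpl55, a small protein of this subunit, the probe at chr11:59019307-59019366 gave 5.005, 5.17 and 5.18 on control arrays 1 to 3 and 4.51, 4.48 and 4.67 on Ebf1 arrays 1 to 3. All Ebf1 arrays were below all control arrays, with a change of -0.57 ± 0.14 (SE; adjusted p = 0.025).

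Mrpl19 encodes a protein that faces the small subunit in the bacterial ribosome. Its probe at chr6:81911970-81912029 gave 2.48, 2.34 and 2.27 on control arrays 1 to 3 and 1.19, 1.83 and 1.72 on Ebf1 arrays 1 to 3. Ebf1 array 1 was well below the other Ebf1 arrays, which themselves lay under all controls, and the change was -0.78 ± 0.20 (SE; adjusted p = 0.028). The small protein Mrpl33 (chr5:31924925-31924984) gave 6.73, 6.69 and 6.81 on control arrays 1 to 3 and 5.85, 6.23 and 6.32 on Ebf1 arrays 1 to 3. Here, too, Ebf1 array 1 was the lowest and the groups were separate, with a change of -0.61 ± 0.17 (SE; adjusted p = 0.036). Mrpl20, whose bacterial counterpart is needed early in the assembly of the large subunit, gave 6.70, 6.87 and 6.90 on control arrays 1 to 3 and 6.16, 6.24 and 6.48 on Ebf1 arrays 1 to 3 at chr4:155182878-155182937. Ebf1 array 3 came nearest to the controls without reaching them, and the change was -0.53 ± 0.15 (SE; adjusted p = 0.042). Mrpl47 belongs to the proteins around the exit of the peptide tunnel, and its chosen probe (chr3:32630147-32632538) gave 1.73, 1.70 and 1.58 on control arrays 1 to 3 and 0.83, 1.06 and 1.34 on Ebf1 arrays 1 to 3. The Ebf1 arrays were spread widely below tightly grouped controls, and the change was -0.60 ± 0.17 (SE; adjusted p = 0.043). Mrpl16, which in bacteria helps to form the tRNA binding sites, gave 3.54, 3.71 and 3.70 on control arrays 1 to 3 and 2.66, 2.95 and 3.32 on Ebf1 arrays 1 to 3 at chr19:11849233-11849292. Its Ebf1 arrays were spread in the same order as those of Mrpl47, all under the controls, and the change was -0.67 ± 0.19 (SE; adjusted p = 0.043).

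Of the 18 large subunit genes classed as mitochondrion-specific, counting Mrps18a and Mrps30, 2 were called lower (11.1%, near the 11.0% of all genes), 16 did not pass and the median change was -0.30. Mrpl41, which has also been reported to interact with p53, gave 5.15, 5.09 and 5.11 on control arrays 1 to 3 and 4.27, 4.27 and 4.63 on Ebf1 arrays 1 to 3 with the probe at chr2:24829696-24829755. Control arrays were nearly equal, Ebf1 arrays 1 and 2 were lowest and Ebf1 array 3 lay between, and the change was -0.73 ± 0.15 (SE; adjusted p = 0.014). Mrps18a and Mrps18b resemble a protein of the bacterial small subunit but were counted in the mitochondrion-specific classes of the large and the small subunit. Without them, 1 of 17 and 2 of 9 genes of these classes were called lower, beside 11.0% of all genes. Mrps18a has the window with the ETS and YY1 matches above. Its probe (chr17:46265584-46265643) gave 3.15, 3.09 and 3.23 on control arrays 1 to 3 and 2.58, 2.65 and 2.70 on Ebf1 arrays 1 to 3. Both groups were tight and separate, and the change of -0.51 ± 0.13 (SE; adjusted p = 0.03) was the smallest in size among the 17. Next by p came Mrps30, at -0.42 ± 0.13 (SE; adjusted p = 0.063), and Mrpl46, at -0.48 ± 0.15 (SE; adjusted p = 0.064), neither of which passed although their groups did not overlap.

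Among the 16 small subunit genes with a bacterial counterpart, 4 were called lower (25%, beside 11.0% of all genes) and 12 did not pass, with a median change of -0.24. Mrps10, a protein of the head of the small subunit, had the smallest p of the 75. Its probe (chr17:47515453-47515512) gave 4.23, 4.18 and 4.09 on control arrays 1 to 3 and 3.50, 3.42 and 3.29 on Ebf1 arrays 1 to 3. Within each group the arrays were close, the groups were far apart, and the change was -0.76 ± 0.14 (SE; adjusted p = 0.0069). Mrps7, which lies in the head near the path of the message, gave 3.36, 3.31 and 3.45 on control arrays 1 to 3 and 2.74, 2.68 and 2.53 on Ebf1 arrays 1 to 3 at chr11:115468169-115468228. Ebf1 array 3 was the lowest of the 6, unlike for most of the called genes, and the change was -0.72 ± 0.14 (SE; adjusted p = 0.0093). Mrps24 corresponds to a bacterial protein at the entry of the message channel, and its probe (chr11:5604421-5604480) gave 3.95, 4.09 and 4.13 on control arrays 1 to 3 and 3.42, 3.39 and 3.52 on Ebf1 arrays 1 to 3. The groups were separate and the change was -0.62 ± 0.14 (SE; adjusted p = 0.017). Mrps2, whose bacterial counterpart joins late in assembly between head and body, gave 1.99, 1.95 and 1.78 on control arrays 1 to 3 and 1.37, 1.28 and 1.46 on Ebf1 arrays 1 to 3 at chr2:28326283-28326342. All Ebf1 arrays lay under all controls, with a change of -0.54 ± 0.14 (SE; adjusted p = 0.031).

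The 10 small subunit genes classed as mitochondrion-specific had a median change of -0.45, with 3 called lower (30%, beside 11.0% of all genes) and 7 not passing. Mrps34 is needed for a stable small subunit, and loss of it causes a mitochondrial disease in people. Its probe (chr17:25033156-25033215) gave 5.34, 5.61 and 5.46 on control arrays 1 to 3 and 4.72, 4.68 and 4.78 on Ebf1 arrays 1 to 3. Ebf1 arrays were close together and lay far under the controls, and the change was -0.75 ± 0.14 (SE; adjusted p = 0.0084). Mrps18b, another relative of Mrps18a, gave -0.44, -0.39 and -0.54 on control arrays 1 to 3 and -1.61, -1.08 and -1.22 on Ebf1 arrays 1 to 3 with the chosen probe at chr17:36051313-36051461. Ebf1 array 1 was the lowest, all Ebf1 arrays were under all controls, and the change was -0.85 ± 0.17 (SE; adjusted p = 0.012). Mrps26 (chr2:130390822-130390881) gave 4.78, 4.99 and 5.10 on control arrays 1 to 3 and 4.49, 4.34 and 4.47 on Ebf1 arrays 1 to 3. Control array 1 was the control nearest to the Ebf1 arrays, which did not reach it, and the change was -0.52 ± 0.15 (SE; adjusted p = 0.042). The next by p was Mrps27, an RNA-binding repeat protein, which did not pass, at -0.47 ± 0.18 (SE; adjusted p = 0.11). Mrps36, which is now known as a subunit of the 2-oxoglutarate dehydrogenase complex and was put in neither subunit, did not pass either, at -0.32 ± 0.14 (SE; adjusted p = 0.16). Over whole subunits, 10 of 48 genes of the large subunit were called lower (20.8%, beside 11.0% of all genes), with a median of -0.37. In the small subunit 7 of 26 were called lower (26.9%), with a median of -0.31. The difference between the subunits was not tested.

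**Figure D3:**
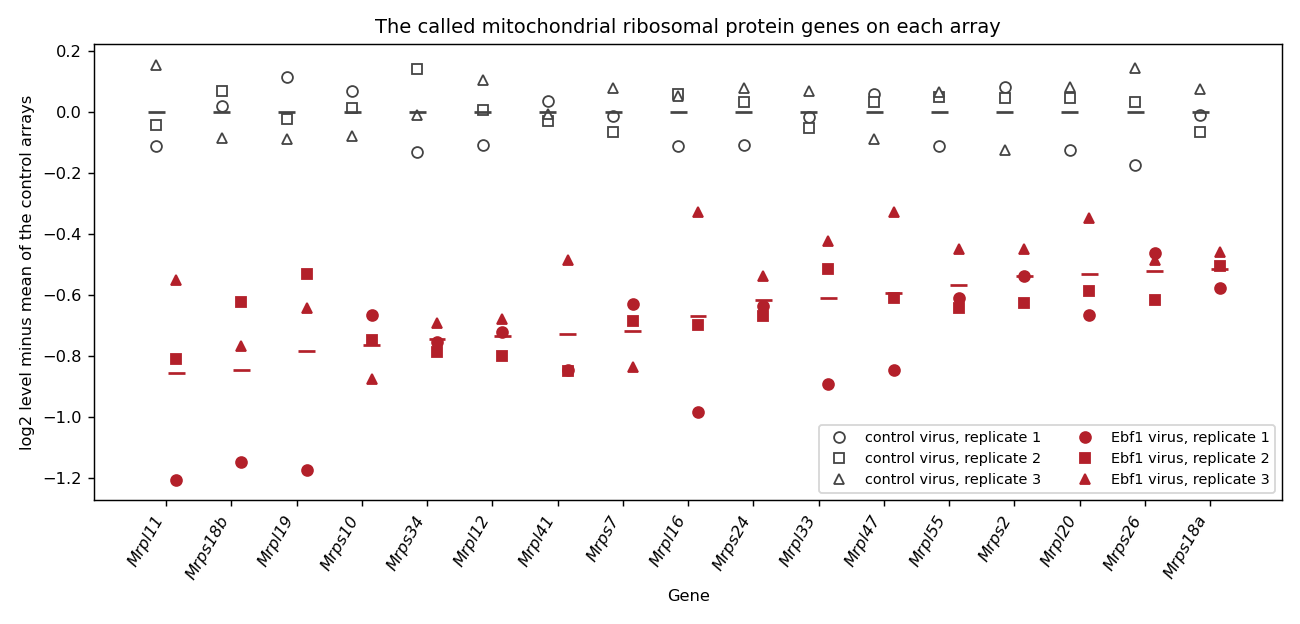
Log2 level of each of the 17 called genes on the 6 arrays, minus the mean of the 3 control arrays (vertical axis), with genes along the horizontal axis in order of change. Open grey symbols are control arrays, filled red symbols Ebf1 arrays, shapes mark the replicate number and short lines the group means; no red symbol reaches the lowest open symbol of its gene, and the SD of the red symbols is largest for Mrpl19, Mrpl16 and Mrpl11.

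No gene was called higher. The 3 genes whose Ebf1 arrays all lay above their control arrays were picked out after their values were seen. Mrpl52, a mitochondrion-specific protein of the large subunit, gave 4.93, 4.96 and 5.05 on control arrays 1 to 3 and 5.54, 5.14 and 5.32 on Ebf1 arrays 1 to 3, a change of 0.35 ± 0.15 (SE; adjusted p = 0.14). Mrpl14, which faces the small subunit, gave 5.95, 5.94 and 6.17 on control arrays 1 to 3 and 6.29, 6.29 and 6.43 on Ebf1 arrays 1 to 3, a change of 0.32 ± 0.14 (SE; adjusted p = 0.15). Mrpl18, a protein of the central protuberance, gave 4.35, 4.36 and 4.26 on control arrays 1 to 3 and 4.40, 4.51 and 4.82 on Ebf1 arrays 1 to 3, a change of 0.26 ± 0.16 (SE; adjusted p = 0.28). In each case the nearest control and Ebf1 arrays were close to each other. Mrpl14 passed only under quantile normalisation (adjusted p = 0.045) and Mrpl52 only where all probes of a gene were averaged (adjusted p = 0.031).

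For 29 genes more than 1 probe was tested, and probes of a gene did not always give the same call. In 8 of the 29 at least 1 probe was called lower, in 2 of these 8 all tested probes were, and in none was a probe called higher. Mrps7 was lower on both probes, at -0.72 and -0.60, as was Mrps26, at -0.52 and -0.54. Mrps2 had a called probe at -0.54 and others at -0.47 and 0.35, of which the last was well above background on only 1 control array. Mrpl15, Mrpl38 and Mrpl40, proteins of the large subunit, were not called with the chosen probe, at -0.46, -0.39 and -0.44, but were called lower with another probe, at -0.80, -0.85 and -0.61. The array lists the second probe of Mrps18b (-0.32, not called) on the other strand than the chosen one. Mrpl47 had a second probe at chr3:32624672-32624731 (mm9) with a change of -0.02 ± 0.15 (SE; adjusted p = 0.93), beside -0.60 for the chosen one. The chosen probes of Mrpl47 and Mrps18b are printed because these calls rest on them: each has 60 bases but is listed over a longer stretch of the genome, 2392 bases for Mrpl47 and 149 for Mrps18b, so its bases are not contiguous there. With no gene models in the files, exon numbers are not given.
Mrpl47: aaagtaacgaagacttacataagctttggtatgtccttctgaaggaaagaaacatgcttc
Mrps18b: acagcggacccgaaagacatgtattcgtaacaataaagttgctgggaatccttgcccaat

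The arrays of the Ebf1 group differed in how low these genes lay. Relative to each gene's mean over the 6 arrays, the median of the 75 was 0.15, 0.17 and 0.20 on control arrays 1 to 3 and -0.27, -0.14 and -0.07 on Ebf1 arrays 1 to 3. Control arrays were thus close together, and the Ebf1 arrays were spread out below them. Ebf1 array 1 was the lowest of the 6 for 37 of the 75 genes, Ebf1 array 2 for 20 and Ebf1 array 3 for 9. Among the 17 called genes the lowest array was Ebf1 array 1 for 8, Ebf1 array 2 for 7 and Ebf1 array 3 for 2. The SD within the group was larger on Ebf1 than on control arrays for 46 of the 75, with medians of 0.164 and 0.107. The called genes lay on several chromosomes, with 4 of 10 members on chromosome 11, 4 of 8 on chromosome 17 and 3 of 4 on chromosome 2. Other chromosomes had fewer, such as 1 of 7 members on chromosome 6 and 0 of 6 on chromosome 7. Over the array 11.0% of all genes were called lower. That share was not counted by chromosome, so no grouping is read from these counts.

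The proteins of the cytosolic ribosome, which translates all nuclear messages, were set beside these genes. None of 77 was called in either direction, beside 11.0% of all genes called lower and 12.6% higher. At an unadjusted p under 0.05 there were 0 lower and 1 higher, beside 20.0% and 18.1% of all genes. Their median change was -0.09, which became 0.01 under quantile normalisation. All Ebf1 arrays lay below all control arrays for 2 of the 77, and above them for 2, beside 25.2% and 20.3% of all genes. Their median deviation was -0.09, 0.11 and 0.18 on control arrays and -0.23, 0.00 and 0.08 on Ebf1 arrays, so that the groups overlapped and Ebf1 array 1 was again the lowest. On the slide that held both groups, the cytosolic genes were at -0.38 (68 of 77 below 0), beside -0.42 for the mitochondrial genes. Of all 13627 genes tested, 7757 lay below 0 on that slide. Without Ebf1 array 1 the medians of the cytosolic and mitochondrial genes were -0.01 and -0.28. The difference between both sets of genes was not tested.

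Nuclear genes of the respiratory chain and ATP synthase encode the partners of the proteins that mitochondrial ribosomes make. Of 78 such genes 74 were tested, 4 were called lower (5.41%, beside 11.0% of all genes) and 1 higher (1.35% beside 12.6%). The median change was -0.29, close to the -0.35 of the ribosomal protein genes, and 66 of the 74 lay below 0 (89.2%, beside 55.4% of all genes). All Ebf1 arrays were below all control arrays for 32 of the 74 (43.2% beside 25.2%), and at an unadjusted p under 0.05 there were 18 lower (24.3% beside 20.0%) and 1 higher. On the slide that held both groups their median was -0.42, with 66 of the 74 below 0, close to the ribosomal protein genes. The difference between these genes and the ribosomal protein genes was not tested. The lower genes were Cox6a2, a muscle-type subunit of cytochrome oxidase, at -1.76 ± 0.14 (SE; adjusted p = 0.00013), the ATP synthase genes Atp5k, at -0.65 ± 0.18 (SE; adjusted p = 0.037), and Atp5g1, at -0.50 ± 0.13 (SE; adjusted p = 0.032), and the complex I gene Ndufa12, at -0.62 ± 0.15 (SE; adjusted p = 0.022). Atp5sl, named for its likeness to an ATP synthase subunit, was higher at 0.81 ± 0.16 (SE; adjusted p = 0.011). Leaving out 1 array at a time gave 1 to 4 genes called lower, and the trend and robust options of eBayes gave 12. Probes for 2 messages that mitochondrial ribosomes translate, chosen after their values were seen, were not called, with -0.06 ± 0.18 (SE) for COX2 and -0.24 ± 0.24 (SE) for CYTB.

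**Figure D4:**
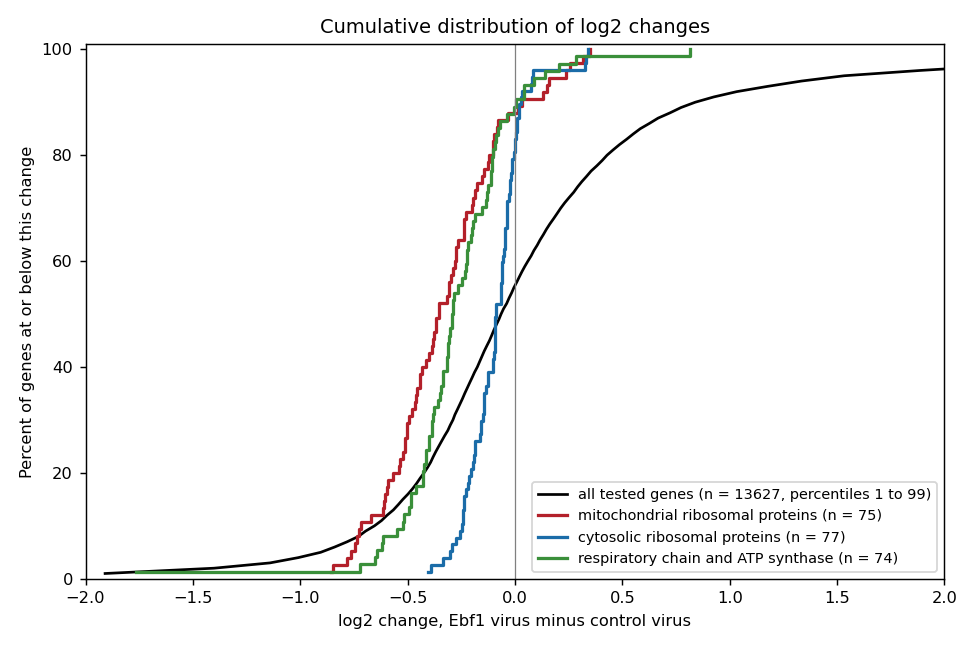
Percent of genes at or below each log2 change (horizontal axis, Ebf1 virus minus control virus, drawn from -2 to 2) for the 75 mitochondrial ribosomal protein genes (red), 77 cytosolic ribosomal protein genes (blue), 74 respiratory chain and ATP synthase genes (green) and percentiles 1 to 99 of all 13627 tested genes (black). The red curve crosses 50% at -0.35, the green at -0.29, the blue at -0.09 and the black at -0.06.

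Other genes that build or serve the mitochondrial ribosome were taken in 6 lists of 89 genes, of which 87 were on the array and 85 were tested. Over all of them 12 were called lower (14.1%, near the 11.0% of all genes) and 1 higher (1.18% beside 12.6%), so the called genes are given one by one and not as a result about the lists. Mitochondrial ribosomal proteins that bear other names were all below 0 (7 of 7, median -0.39), and 2 were called lower. Gadd45gip1, a large subunit protein first named for binding a stress protein, gave 5.50, 5.75 and 5.80 on control arrays 1 to 3 and 5.09, 5.01 and 5.21 on Ebf1 arrays 1 to 3, and all Ebf1 arrays were below all controls, with a change of -0.58 ± 0.15 (SE; adjusted p = 0.03). Ict1, a ribosome-bound peptidyl-tRNA hydrolase that rescues stalled ribosomes, was lower at -0.48 ± 0.13 (SE; adjusted p = 0.039).

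Among 21 tested factors of ribosome assembly and rRNA modification, 3 were called lower (14.3%, beside 11.0% of all genes) and none higher, with 5 lower (23.8% beside 20.0%) and 1 higher at an unadjusted p under 0.05 and a median of -0.19. The RNA helicase Dhx30 changed by -0.55 ± 0.13 (SE; adjusted p = 0.025) and the methyltransferase Mrm3, listed on the array as Rnmtl1, by -0.58 ± 0.14 (SE; adjusted p = 0.025). The RNA-binding assembly factor Fastkd2 was at -0.69 ± 0.17 (SE; adjusted p = 0.026) with the chosen probe, and at 0.0086 where all its tested probes were averaged. Of 15 translation factors, Lrpprc, which stabilises mitochondrial messages, was called lower at -0.60 ± 0.14 (SE; adjusted p = 0.021), and Mtrf1, of the release factor family, was called higher at 0.51 ± 0.13 (SE; adjusted p = 0.032), with a median of -0.16. Of 19 aminoacyl-tRNA synthetases, which charge the tRNAs used in mitochondria, Mars2 fell by 0.74 ± 0.13 (SE; adjusted p = 0.0066) and Yars2 by 0.71 ± 0.17 (SE; adjusted p = 0.022), while the other 17 did not pass and the median was -0.26.

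Genes that copy, transcribe and process mitochondrial nucleic acids had a median of -0.19 over 14 tested. Elac2, which cuts the ends of tRNA precursors, was the only gene of the list called, at -0.67 ± 0.16 (SE; adjusted p = 0.024); Tfam, which packages mitochondrial DNA, was at -0.34 ± 0.13 (SE; adjusted p = 0.11) and the RNA polymerase Polrmt at 0.10 ± 0.15 (SE; adjusted p = 0.67), neither past the threshold. Of 9 tested transcriptional regulators of mitochondrial genes, 3 were called lower (33.3%, beside 11.0% of all genes). Mycn, a Myc family factor that drives growth and ribosome genes, gave 4.82, 4.78 and 4.85 on control arrays 1 to 3 and 3.26, 2.88 and 3.26 on Ebf1 arrays 1 to 3. All Ebf1 arrays were far below all controls, and the change was -1.68 ± 0.16 (SE; adjusted p = 0.00025). The coactivators of the PGC-1 family Pprc1 and Ppargc1b changed by -1.09 ± 0.16 (SE; adjusted p = 0.0025) and -0.75 ± 0.17 (SE; adjusted p = 0.021), and the probe of the third, Ppargc1a, did not reach the filter. Of the other factors on the list that bind motifs counted above, these were not called: Nrf1 was at 0.19, Gabpa at -0.22, Yy1 at -0.35 and Myc at -0.22. Leaving out control array 2 or 3 gave 4 and 3 lower calls over the 6 lists in place of 12, and leaving out Ebf1 array 1, 2 or 3 gave 6, 5 and 8.

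**Figure D5:**
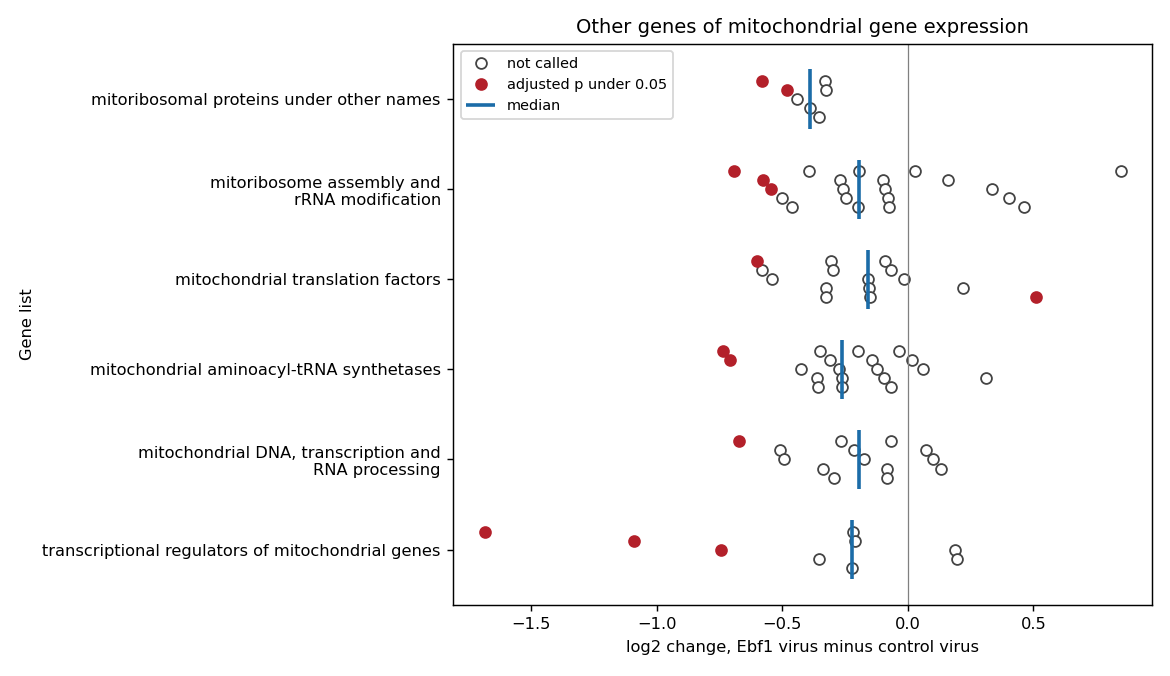
Log2 change (horizontal axis, Ebf1 virus minus control virus) of each tested gene in 6 lists of other genes of mitochondrial gene expression (vertical axis; vertical scatter within a list has no meaning). Filled red points have an adjusted p under 0.05 and blue lines are list medians, all of which lie below 0; the regulators Mycn, Pprc1 and Ppargc1b are the lowest filled points of the bottom list, and Mtrf1 is the filled point above 0.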

How the data were processed

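Total RNA of sorted cells was primed with oligo dT, labelled with Cy3 and hybridised to 1-colour Agilent arrays, per the labels' protocols. Per the file headers, the deposited intensity values were extracted by the authors with Feature Extraction 10.5.1.1, which subtracted background; this software is also named, with no version, in the submitters' processing notes, and no scaling between arrays is recorded. Probe positions are those of mm9, per the file headers.

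From these, log2(processed signal) minus each array's 75th percentile was computed without control features (1639 of 45018) and outlier spots, and spots of a probe were averaged. Probes well above background on all 3 arrays of at least 1 group were tested (20455) with limma 3.58.1 in R 4.3.3 (package data.table, version 1.17.8), two-sided, with Benjamini-Hochberg adjustment and a threshold of 0.05; the fit was tested on simulated data. Samples were grouped by their titles. Members were taken by the array's gene names; other lists also by current RefSeq symbols, which 25097 probes had through their accession. The members, lists and alternatives were chosen with earlier results of these data known. Named are every called gene, the 4 members of each class with the smallest p, and members whose probes differ in call; any other gene was picked with its values in view. As alternatives, use was made of normexp correction (offset 50), quantile normalisation, 2 median scalings, 2 other filters, the replicate number or slide as a block, eBayes with trend and robust, the mean of probes, removal of a GC trend, the intensities in the deposited series table, which equal those of the array files, and leaving out each array.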

Additional observations from a re-analysis of the deposited data

How the results depend on the processing

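All 17 called genes kept their direction under each of the 19 alternatives. Leaving out 1 array or using the slide as a fixed block could not reverse it, because each of the 17 had all Ebf1 arrays below all controls. The deposited series table holds the same intensities, so that alternative repeats the reported fit and adds 1 automatic call to each count out of 19. Mrps10, Mrpl12, Mrps34, Mrps7 and Mrps18b were each called in 17 of the 19, and Mrpl20 and Mrpl47, the least often called, in 7. Quantile normalisation gave 11 lower and 1 higher among the 75, with a median of -0.25; median scaling over all probes gave a median of -0.66, 1256 probes called higher in place of 2350, and 0 of the other genes of mitochondrial gene expression called higher. Median scaling over probes above background on all 6 arrays called 2 of those other genes higher. Without the filter on dim probes, over 41174 probes, 0 of the 75 passed; 655 probes were lower and 1341 higher, and 2 of the other genes were lower and 0 higher. The slide as a fixed block left 2 of the 75, 898 probes lower and 1270 higher, and 1 of the other genes lower and 0 higher; it leaves fewer degrees of freedom and rests on 1 slide with both groups. Averaging a gene's probes called 1 of the 75 and 3 of the other genes higher, and Fastkd2 turned to 0.0086 (adjusted p = 0.97). Without 1 array at a time, 4 to 15 of the 75 were lower and 0 were higher; their median ran from -0.41 to -0.28, lower probes from 1016 to 1687 in place of 2085, higher probes from 1594 to 2124 in place of 2350, and the other genes from 3 to 9 lower and 0 higher. The control array whose absence left the fewest was control array 2. With the replicate number as a block, 7 of the 75 (9.33%) and 1233 probes (6.03%) were lower, and 3 of the other genes were lower and 0 higher. After each group's mean was taken out, arrays with the same number correlated at -0.19, -0.34 and 0.09, over probes above background on all 6 arrays. The highest value, 0.34, was between control array 2 and Ebf1 array 1, which shared a slide. Values from 3 arrays a group centred on their own mean cannot decide whether arrays with the same number belong together. The cause of the shifts between settings was not tested except where stated.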
